A study of Mus musculus with 2 samples.

Results

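The genes described here are 10 regulators of transcription, immediate-early factors with 2 corepressors. These are the EGR factors Egr1, Egr2, Egr3 and Egr4, their NAB corepressors Nab1 and Nab2, NR4A nuclear receptors Nr4a1, Nr4a2 and Nr4a3, and Csrnp1. They were chosen by gene symbol, with their ratios on these arrays already known, so their values are a description and no test of the treatment. All 10 were measured, by 22 probe sets with 1 gene symbol, among 18193 genes in all. The study asked which genes answer Nell-1, a secreted protein that promotes bone and cartilage formation, without new protein synthesis. ATDC5, a mouse chondrogenic cell line, was deprived of serum and given cycloheximide (CHX) at 10 µg/ml for 30 min. The cells then received PBS (the group CHX+PBS, 1 array) or recombinant human Nell-1 at 100 ng/ml (the group CHX+Nell-1, 1 array) for another 30 min. Both groups therefore carried cycloheximide and serum starvation, and cells without either were not analysed here. With 1 array per group there was no spread between cultures, and no test, error or p-value could be given for any difference.

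EGR genes are switched on within minutes of growth factor stimulation, when ERK kinases activate ETS-family partners of serum response factor at their promoters. The EGR proteins bind GC-rich DNA through zinc fingers, and NAB proteins dock on them and repress their targets. Nab2 is itself a target of EGR proteins, which closes a feedback loop. NR4A receptors act without a known endogenous ligand, so their activity follows their amount, and CREB and MEF2 factors drive their transcription. In skeletal cells, parathyroid hormone is a known inducer of NR4A genes. Csrnp1 encodes a cysteine- and serine-rich nuclear protein of the early response. Blocking protein synthesis is known to prolong immediate-early transcripts, which is called superinduction.

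Promoter stretches with the letters that CREB, serum response factor and EGR proteins are known to read are shown for some members that hold them. They describe these members by more than their ratios. RefSeq promoter windows of build GRCm38.p6 were used for 8 of the 10 genes. Each is a short stretch around 1 start, such as chr2:57123954-57124253 for Nr4a2, so a motif further away was not searched for. There were 15 windows because Egr2 and Csrnp1 have several starts, and all motifs were searched on both strands. No window of Egr1 or Egr3 was searched, so whether their promoters hold these motifs is not described. The core of the CREB site, TGACG on either strand, occurred 4 times in the windows of each of Nr4a1, Nr4a2 and Nr4a3. Of all 32851 windows, 20.8% held it at least once and 0.231% at least 4 times. Egr2 held it 2 times in each of 3 overlapping windows, Egr4 2 times, Nab1 1 time, each Csrnp1 window 1 or 2 times, and Nab2 not at all. Capitals mark the cores that lie whole within each stretch below, which are all 4 for Nr4a2 and 2 of the 4 for Nr4a1 and for Nr4a3. The last letters of the Nr4a3 stretch, in lower case, begin a further core that runs past its end. The Nr4a2 stretch lies on the minus strand at chr2:57124104-57124213, the Nr4a1 stretch on the plus strand at chr15:101266610-101266639 and the Nr4a3 stretch on the plus strand at chr4:48045073-48045102.
Nr4a2: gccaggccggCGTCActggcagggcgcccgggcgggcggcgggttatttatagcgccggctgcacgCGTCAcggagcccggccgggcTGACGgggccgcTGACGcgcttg
Nr4a1: ctgCGTCAatggaaccccgcgtgCGTCAcg
Nr4a3: gTGACGtagcgtcccatgtCGTCAcattga

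A CArG box, the site of serum response factor, was found in 4 of 5 Egr2 windows, 3 of which overlap and share 1 box, against 1.63% of all windows. An EGR site, GCGTGGGCG on either strand, occurred 2 times in the Nab1 window and in 0.612% of all windows. The related EGR site GCGGGGGCG occurred 1 time each in the Nab1 and Nr4a1 windows and in 2.91% of all windows. No CArG box and neither EGR site was found in the Nab2, Egr4 or Csrnp1 windows. The full CREB site TGACGTCA, which contains the core, and the NR4A monomer site AAAGGTCA were found in no member window, and in 1.79% and 1.51% of all windows. Capitals mark the CArG box or the EGR site below, at chr10:67537484-67537513 (plus strand) and chr10:67537787-67537816 (plus strand) for Egr2 and at chr1:52500539-52500568 (minus strand) for Nab1. A match describes the letters and is not evidence of binding.
Egr2, upstream box: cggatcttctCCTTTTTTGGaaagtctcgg
Egr2, downstream box: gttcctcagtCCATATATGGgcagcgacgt
Nab1: cactcggccgcGCGTGGGCGggagccggag

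Egr1 had the largest difference of the 10 genes relative to the spread at its signal, and it was lower with Nell-1. The MAS5 signal of its 1 probe set, a linear intensity in arbitrary units, was 1293 with PBS and 506 with Nell-1. That is a log2 ratio of CHX+Nell-1 over CHX+PBS of -1.35, or 2.55-fold lower, past the 1.5-fold threshold of the submitters. Probe sets were divided into 10 equal bins of mean signal, and the spread of log2 ratios within a bin, as a robust SD, served as the yardstick. It was 0.28 in the bin of Egr1, so the ratio of Egr1 was 4.78 times this spread. None of the other 2919 genes of that bin had a lower ratio, and Egr1 also had the lowest ratio of the 5845 genes in the 2 brightest bins together. In those bins 13 genes were at least 2-fold lower and 1 at least 2-fold higher. The arrays read bulk RNA, so fewer cells with the transcript and less transcript per cell cannot be told apart.

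The genes most like Egr1 over the 2 arrays, by nearness of the log2 ratio among genes of its signal bin, were Sh3pxd2b, Omd, Pgm5, Hopx and Rgcc. Sh3pxd2b, an adaptor of podosomes, measured 934 with PBS and 374 with Nell-1. Omd, encoding the matrix proteoglycan osteomodulin, measured 2231 and 911. Pgm5 (-1.15), Hopx (-1.15) and Rgcc (-1.13) had slightly smaller log2 ratios. Likeness over 2 arrays is a single ratio and carries no more than that.

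**Figure D1:**
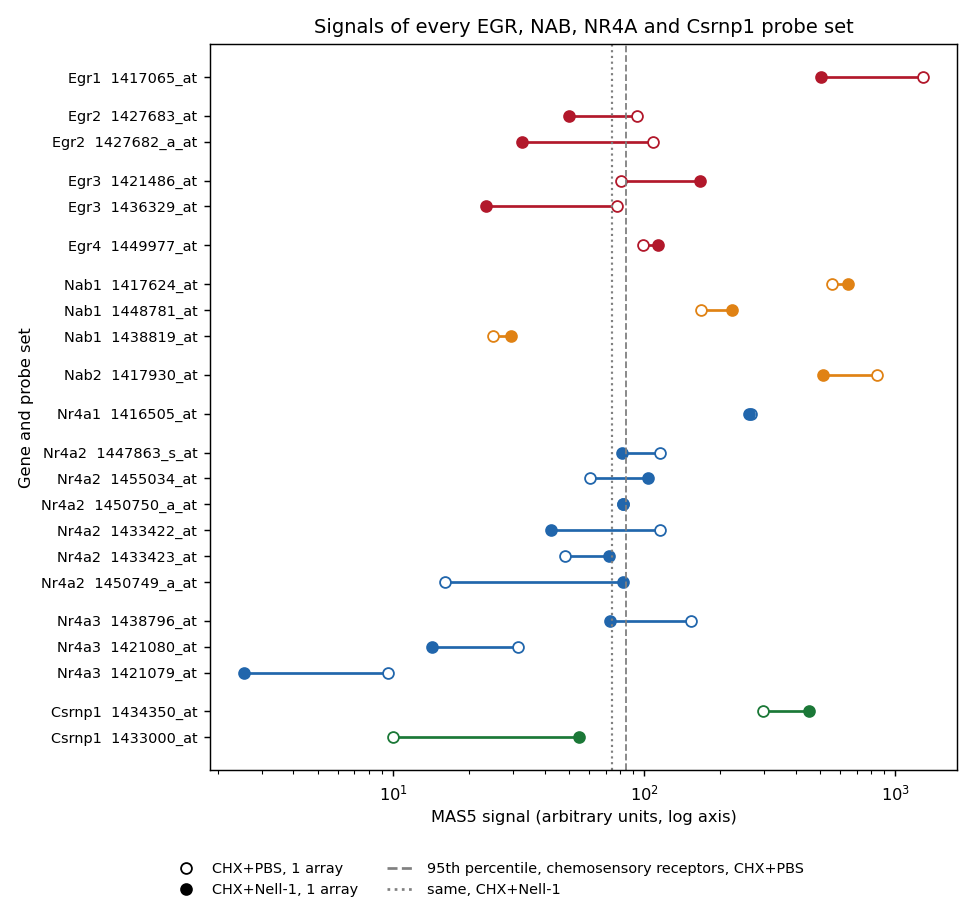
MAS5 signal (arbitrary units, log axis) of each of the 22 probe sets of the 10 genes, with the CHX+PBS array as open and the CHX+Nell-1 array as filled circles. The vertical lines give the 95th percentile of chemosensory receptor probe sets on each array (84.4 and 74.45), and only distances within a row can be compared, because probe sets differ in affinity. Egr1 moves from 1293 to 506, and the Nr4a2 rows point in both directions.

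The other EGR factors did not share one pattern. Egr2, a zinc-finger factor best known from myelinating Schwann cells, measured 93.6 with PBS and 49.9 with Nell-1 on its brightest probe set. Its second probe set measured 108 and 32.5. Both Egr2 probe sets were thus lower with Nell-1, by 1.88-fold and 3.33-fold. Their log2 ratios, -0.91 and -1.74, were 1.46 and 2.80 times the robust SD of their bin, where 36.3% of probe sets passed 1.5-fold. On both, the Nell-1 signal was within the range of chemosensory receptor genes, which serve below as genes expected to be silent. Egr3, a close relative of Egr2, measured 80.8 with PBS and 166 with Nell-1 on its brightest probe set. Its second probe set measured 77.7 and 23.5. These point in opposite directions, 2.05-fold higher and 3.31-fold lower, and the log2 ratios of 1.04 and -1.73 lie 2.77 apart. The data therefore give no single direction for Egr3. Egr4, the remaining relative, gave signals of 98.7 and 113 and a log2 ratio of 0.19 where the robust SD was 0.62.

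The 2 corepressors pointed apart. Nab2 measured 844 with PBS and 517 with Nell-1, which is 1.63-fold lower, or -0.71 on the log2 scale. This was 2.50 times the robust SD of its bin, the same bin as that of Egr1, where 26 of 2920 genes had a lower ratio. Nab1, the corepressor that is less tied to stimulation, measured 560.4 with PBS and 647 with Nell-1 on its brightest probe set. Its second probe set measured 167 and 224, and the dimmest 24.98 and 29.4. All 3 Nab1 ratios were above 0, at 0.21, 0.42 and 0.24, and each was within the robust SD of its bin.

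Of the NR4A receptors, only Nr4a3 was at least 1.5-fold lower on every probe set, 3 of 3. Nr4a3 measured 153 with PBS and 73.1 with Nell-1 on its brightest probe set, 2.10-fold lower. Its other probe sets measured 31.3 and 14.2, and 9.49 and 2.54. The log2 ratios were -1.07, -1.14 and -1.90, from signals at which 36.3%, 77.9% and 61.9% of all probe sets passed 1.5-fold. The brightest was 1.72 times the robust SD of its bin, in which 163 of 1585 genes had a lower ratio. The signals of Nr4a1, also known as Nur77, were 265 with PBS and 261 with Nell-1. Its log2 ratio was -0.02, and 771 of the 1744 genes in its bin had a higher ratio.

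Nr4a2, which is needed for midbrain dopamine neurons, was read by 6 probe sets that disagreed. The brightest measured 115 with PBS and 81.05 with Nell-1, the next 60.8 and 104, and the third 82.5 and 81.9. The dimmer probe sets measured 116 and 42.6, 48.3 and 72.4, and 16.1 and 82.3. By 1.5-fold, 2 Nr4a2 probe sets were higher, 1 was lower and 3 were neither, and the log2 ratios ran from -1.44 to 2.35. The 2 brightest lay 1.28 apart. For 125 genes whose 2 brightest probe sets both fell into that signal bin, the median distance was 0.61 and the 90th percentile 1.59. The data give no direction for Nr4a2.

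The brightest Csrnp1 probe set gave 296 with PBS and 454 with Nell-1. Its log2 ratio was 0.62, or 1.53-fold higher. This was 1.87 times the robust SD of its bin, in which 87 of 2426 genes had a higher ratio. Its second probe set, at 9.95 and 55.1, was also higher, at signals where 67.3% of probe sets passed 1.5-fold. Csrnp1 was the only 1 of the 10 genes to be at least 1.5-fold higher on every probe set.

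**Figure D2:**
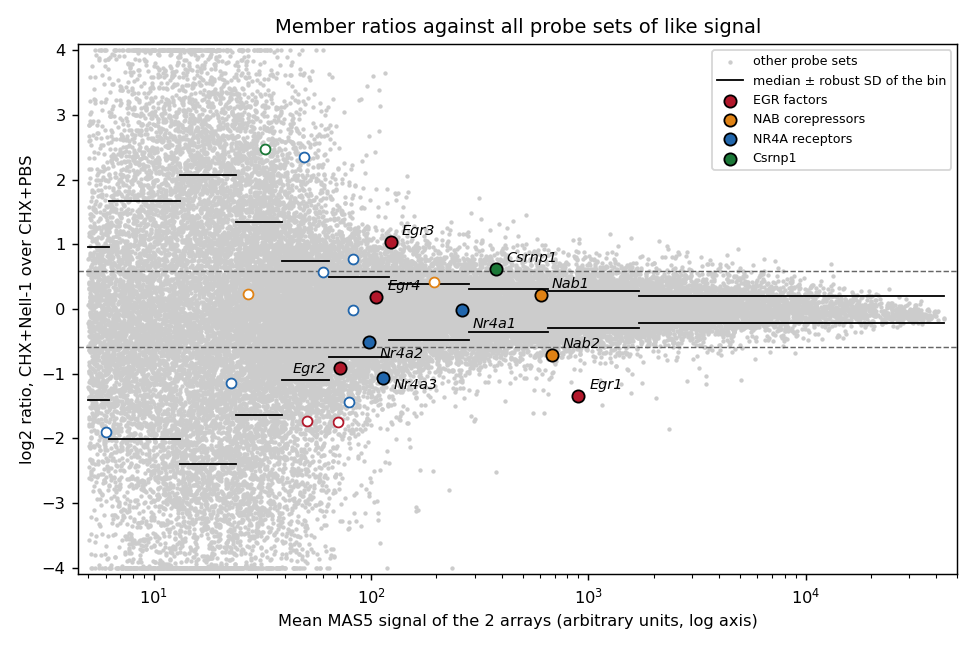
Log2 ratio of CHX+Nell-1 over CHX+PBS against the mean MAS5 signal of the 2 arrays (log axis), for members (filled, brightest probe set; open, other probe sets) and for all other probe sets with a mean signal of at least 5 (grey, with ratios beyond 4 drawn at the edge). Black steps give the median ± robust SD of each signal bin and dashed lines 1.5-fold. Egr1 at -1.35 and Nab2 at -0.71 lie below the steps of their bin, and the robust SD of the bins rises from 0.28 there to 0.62 in the bin of Egr2 and 2.23 at its widest.

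As a group, 4 of the 10 genes (Egr1, Egr2, Nab2 and Nr4a3) were at least 1.5-fold lower on the brightest probe set, beside 19.0% of all 18193 genes and 7.53% of the 11600 genes above the median signal. Egr3 and Csrnp1, 2 of the 10, were at least 1.5-fold higher, beside 13.1% and 4.56%. The median log2 ratio was -0.26 over the 10 genes and -0.06 over all genes. Over the 22 probe sets, 9 were at least 1.5-fold lower and 5 higher, beside 23.1% and 17.5% of all 45037 probe sets. Because the genes were chosen with these ratios known, nothing is read from these shares.

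The median signal over all probe sets was 69.5 with PBS and 62.6 with Nell-1, and how firmly a member's value can be taken depends on its own signal. The 84 probe sets of 76 olfactory, vomeronasal and taste receptor genes, which a chondrogenic cell is not expected to use, had a 95th percentile of 84.4 with PBS and 74.45 with Nell-1. Of the 22 member probe sets, 8 were above these on both arrays, covering Egr1, Egr4, Nab1, Nab2, Nr4a1, Nr4a2 and Csrnp1. A further 8 were above on 1 array and 6 on neither. For Egr2, Egr3 and Nr4a3, no probe set was above on both arrays, and a lower signal there can be a bound rather than a level.

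The arrays also differed in the signal of added control RNA. All 24 poly-A spike-in probe sets, which read bacterial RNAs added before labelling, gave less signal with Nell-1, the median log2 ratio being -0.49 and the range -1.0 to -0.20. All 18 hybridisation spike-ins had log2 ratios below 0 too, with a median of -0.18. The 8 reference genes, such as Actb and Hprt, had a median of 0.01. Scaling on the poly-A spike-ins moves the median of all genes from -0.06 to 0.44. On that scale Egr1 was at -0.86, Egr2 at -0.41, Nab2 at -0.21 and Nr4a3 at -0.57, and the members counted 4 higher and 1 lower, Egr1, in place of 2 and 4. Scaling on the reference genes left 2 higher and 4 lower. Which scale is right was not tested.

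**Figure D3:**
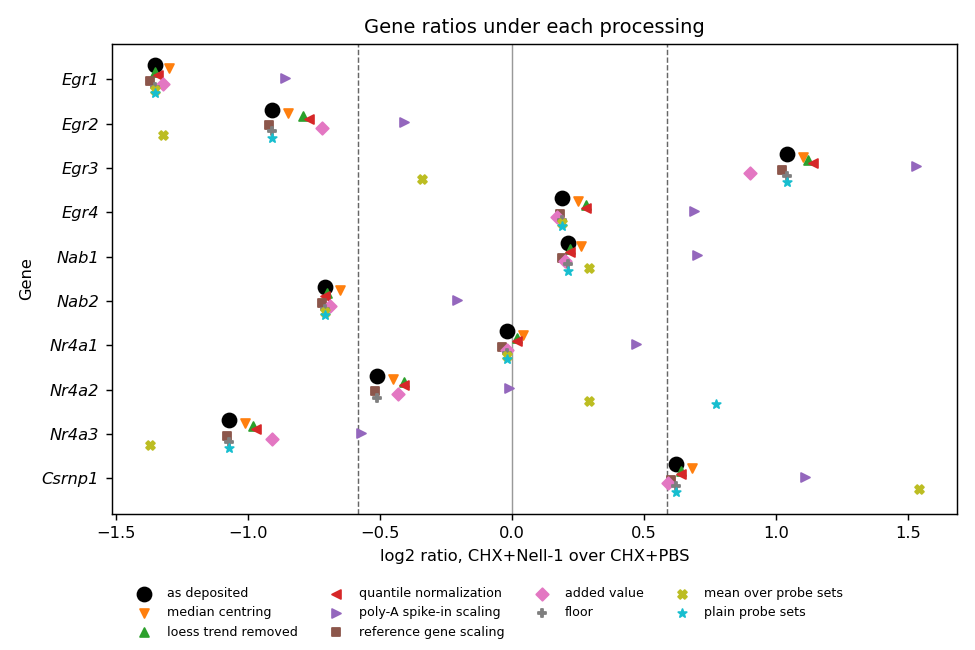
Log2 ratio of CHX+Nell-1 over CHX+PBS of each gene with signals as deposited (large black circles) and under 9 other ways of processing. Dashed lines mark 1.5-fold. Egr1 stays between -1.37 and -0.86, Egr3 and Nr4a2 change sign with the choice of probe sets, and Nr4a1 lies near 0 on most scales.

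Genes that act upstream of or beside the members were taken from fixed lists, which were written with earlier results of these arrays known. From each list, genes past 1.5-fold above the median signal are named, and further genes were picked after their values were seen. Among 17 measured upstream transcription factors, Elk4 passed 1.5-fold upward and Mef2b and Mef2c downward. These stand beside 13.1% and 19.0% of all genes, and 4.56% and 7.53% of genes above the median signal. The list median was -0.19 on the log2 scale, beside -0.06 over all genes. The signal of Elk4, an ETS partner of serum response factor, was 858 with PBS and 1313 with Nell-1, and 1 of its 4 probe sets passed 1.5-fold. Mef2c, of the MEF2 family that drives NR4A genes, measured 101 and 55.5. Its Nell-1 signal was within the silent-receptor range and 1 of its 5 probe sets was above the median signal, while Mef2b lay below the median signal. Srf itself (1389 and 1131) and Creb1 (388 and 340.5) were below 1.5-fold. Of 9 measured kinases and regulators of the ERK routes, 2 were at least 1.5-fold lower, Mapk7 (284 and 164), encoding ERK5, and Rps6ka5 (129.8 and 80.8), encoding MSK1, a kinase of CREB. All 9 were above the median signal, and 7.53% of all genes above it were at least 1.5-fold lower, as were 19.0% of all genes measured. Map2k1, encoding the ERK activator MEK1 (1648 and 1461), was within 1.5-fold, and 8 further listed genes were not analysed here.

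Of 10 measured partners and relatives, Nr0b2 and Csrnp3 were past 1.5-fold upward and Nr0b1 downward, all 3 below the median signal. Of all genes, 13.1% were past 1.5-fold upward and 19.0% downward. The NR4A partners Rxra (723 and 587) and Rxrb (1845 and 1565) were within 1.5-fold on the brightest probe set, as was the Csrnp1 relative Csrnp2 (554 and 728.5). Among 14 measured genes reported as targets of EGR or NR4A proteins, Pdgfb, Fasl, Hsd11b2 and Th were past 1.5-fold downward and Icam1 upward. These stand beside 19.0% and 13.1% of all genes, and 7.53% and 4.56% of genes above the median signal. The median log2 ratio of the targets was -0.29, beside -0.06 over all genes. Above the median signal, Th, encoding the dopamine synthesis enzyme tyrosine hydroxylase (102.5 and 42.6), and Hsd11b2, a glucocorticoid-inactivating enzyme (81.9 and 49.1), were lower. Neither was above the silent-receptor range on both arrays. Pdgfa (1992 and 1459), F3 (799 and 947.5) and Tgfb1 (528 and 554.5), reported EGR1 targets, were within 1.5-fold.

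The nearest comparison is with 14 other immediate-early factors, AP-1 subunits, Myc, Atf3, Ier2 and KLF factors. Fos, Fosb and Jun passed 1.5-fold downward, the other 11 did not pass it, and the median log2 ratio was -0.20 beside -0.26 for the 10 members. The 3 of 14 stand beside 19.0% of all 18193 genes, of which only 11600 were above the median signal. Of the 13 listed factors above the median signal 2 were lower, beside 7.53% of all genes above it, and nothing is read from these shares. Fos measured 342.5 and 168 and Jun 2963 and 1970, the latter past the threshold on 1 of 2 probe sets, while Fosb lay below the median signal. Whether the lists differ was not tested, as there is 1 array per group.

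**Figure D4:**
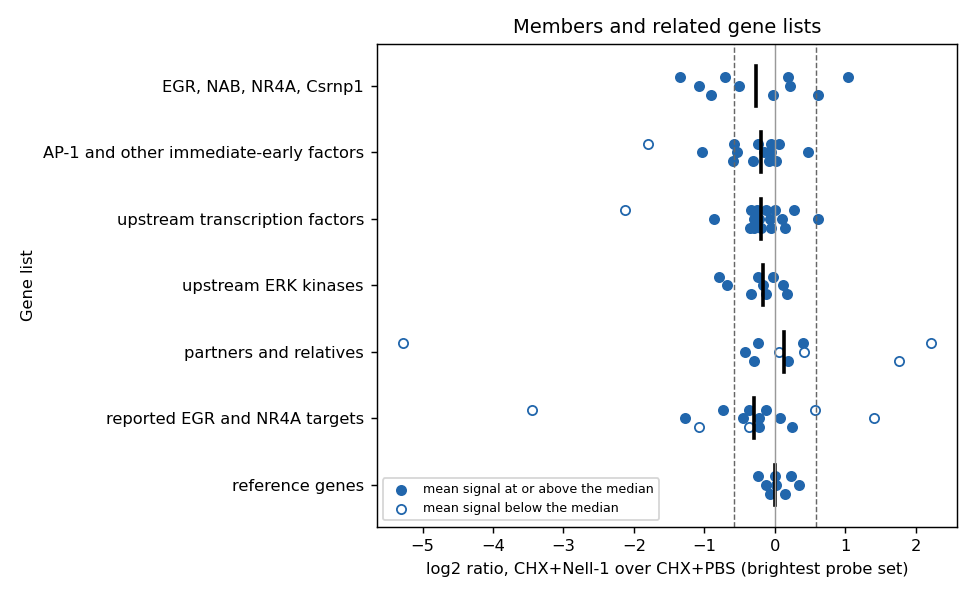
Log2 ratio of CHX+Nell-1 over CHX+PBS on the brightest probe set of each gene, by list, with filled circles at or above the median signal and open circles below it. Black bars are list medians and dashed lines 1.5-fold. The members run from -1.35 to 1.04 and the reference genes from -0.24 to 0.34.

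The labelled cell type was checked against markers. Of 12 chondrogenic markers 7 were above the median signal, among them Sox9 (3375 and 2577) and Col2a1 (909 and 1206). Of these 7, only Col9a1 (79.3 and 73.0) was within the silent-receptor range on both arrays. Acan (176 and 293) and Sox6 (208.5 and 338) were at least 1.5-fold higher with Nell-1. Comp, Matn1, Hapln1 and Cnmd were at least 1.5-fold lower, and these 4 and Matn3 were below the median signal. The 2 higher and 4 lower of 12 stand beside 13.1% and 19.0% of all genes, and the list median log2 ratio was -0.08. Of 8 mesenchymal markers, such as Col1a1 and Vim, 7 were above the median signal. Of 12 markers of blood, endothelial, fat, muscle, epithelial and neural cells 5 were above it, with signals from 3.61 to 466 with PBS and from 1.42 to 685 with Nell-1. Their summed signal was 1375 and 1454. Those 5 were the macrophage marker Cd68 (68.0 and 90.0), the fat marker Fabp4 (77.6 and 62.9), the epithelial markers Epcam (466 and 370.2) and Krt5 (102 and 61.0) and the neuronal marker Tubb3 (454 and 685). Epcam and Tubb3 were above the silent-receptor range on both arrays, and by 1.5-fold Tubb3 was higher and Krt5 lower with Nell-1. The endothelial markers Pecam1 and Cdh5, the muscle markers Myod1 and Myog and the leukocyte marker Ptprc were below the median signal, and the part of such cells in the ratios was not tested.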

How the data were processed

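The authors deposited 1 intensity per probe set and array, a linear MAS5 signal. Per the submitters' processing notes, MAS5 and Affymetrix Expression Console were used, with no version stated in the sources at hand. Each array's 2% trimmed mean was 500.0, so differences in total RNA output are scaled away. Columns were assigned by sample name. Of 45101 probe sets, 64 controls were set apart, and of the rest 34945 had 1 gene symbol, 932 several and 9160 none. Symbols were updated through gene IDs for 34741. Ratios are log2 of CHX+Nell-1 over CHX+PBS, with no constant added. A gene is represented by its probe set of highest mean signal. The median of the mean signal was 64.3. Probe sets of like signal were compared in 10 bins. The fold threshold of 1.5 is the submitters'. Present and absent calls were not used here. The number of arrays limits the precision. All members and every probe set are reported. From other lists, genes past 1.5-fold above the median signal were named (at most 4 a list), with some genes added after their values were seen. The members and lists were chosen with earlier results of these data known, and the silent-receptor yardstick was added after seeing the data. Python 3.11.15, pandas 2.3.3 and statsmodels 0.14.6 were used, and the code was tested on simulated data.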

Additional observations from a re-analysis of the deposited data

How the results depend on the processing

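Scaling on the poly-A spike-ins changed the counts most, to 4 members at least 1.5-fold higher and 1 lower, with a median log2 ratio of 0.23, by construction of the shift. Taking the mean over probe sets left 1 member higher and turned Egr3 to -0.34. Without probe sets whose identifier ends in the suffix _a_at, _s_at or _x_at, 3 members were higher and the median was 0.09. The change came from Nr4a2, which was then read by another probe set. At 2-fold, 1 member was higher and 2 were lower. Median centring, removal of a loess trend, quantile normalization, reference gene scaling and an added value of 17.9 kept 2 higher and 4 lower. The median was then from -0.28 to -0.19. A floor of 17.9 and the limit to members above the median signal could not change the result. All 10 members were above that median, and no brightest probe set of a member had a signal below the floor. Egr1 was past 1.5-fold lower in 9 of 9 alternatives and Csrnp1 past it higher in 9 of 9. Egr2, Nab2 and Nr4a3 were past it in 8 of 9 each, the exception being the poly-A scale. The floor and the removal of suffixed probe sets left all of these ratios unchanged by construction. So did the mean over probe sets for Egr1 and Nab2, which have 1 probe set each. Each group has 1 array, so no array could be left out. No paired analysis was possible, for the same reason. Signal over background limits Egr2, Egr3, Nr4a2 and Nr4a3 most.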
